A study of Mus musculus with 10 samples.

Results

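Emx2, Lhx9, Lhx2, Tcf21, Six4, Cbx2, Nr0b1, Nr2f2 and Gata6 are 9 genes for transcription regulators of the bipotential gonad, the embryonic tissue that can still become a testis or an ovary. Every array feature whose gene symbol was one of these names was taken, which gave 20 of the 62976 features and 9 of the 20863 named genes. Expression was measured on 10 Agilent arrays of cultured mouse cells, 1 labelled sample (Cy3) per array. Induced embryonic Sertoli-like cells (ieSCs) filled 8 arrays, and mouse embryonic fibroblasts (MEFs) without the transgenes filled 2. Of the ieSC arrays, 4 came from MEFs and 4 from tail tip fibroblasts (TTFs) that the labels call female. All cells were of a congenic strain homozygous for R26-M2rtTA, a reverse tetracycline transactivator at the Rosa26 locus. The ieSCs carried 5 transgenes, which encode Sox9, Gata4, Wt1, Nr5a1 and Dmrt1, and both the ieSCs and the MEFs had grown for 2 weeks without doxycycline (dox) in F12/DMEM medium before RNA was taken. No array of unconverted TTFs was analysed here, so the TTF-derived cells could be compared only with MEFs and with MEF-derived ieSCs. The arrays carry 5 names with 2 arrays each, which are MEF and names 1 and 2 of each ieSC origin; the arrays of a name are told apart here as a and b. Whether arrays of a name were separate cultures, and whether a name was a clone, is not stated, so p-values measure the spread between these arrays, part of which may be technical. The MEF arrays share a single name. The p-values against MEF thus take their spread between names from the ieSCs alone, and hold no spread between MEF cultures of other names. The series set ieSCs beside MEFs to ask how far their expression had moved from that of fibroblasts.

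The bipotential gonad forms as a thickening of the coelomic epithelium over the mesonephros. Its growth needs the homeobox genes Emx2 and Lhx9, and Lhx9 helps to switch on Nr5a1, the nuclear receptor of steroid-producing tissue. In XY embryos, Six4 and Cbx2 act upstream of Sry, the gene that starts Sertoli cell development. Sertoli cells line the testis cords and nurse the germ cells. Other regulators mark the cells around the cords: Tcf21 and Nr2f2 are known from the interstitial mesenchyme, and Gata6 is found with Gata4 in several somatic cell types of the gonad.

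Levels are log2 intensities, and a difference of 1 is a doubling on the deposited scale. The 40th percentile of an array lay between 4.988 and 5.023, and a level below about 5.0 is called dim; the deposited table has no flags that say whether a gene was detected. Differences are given with their standard error (SE) from limma, a linear model fitted across all genes, and a gene is called when its Benjamini-Hochberg adjusted p is under 0.05. A gene was tested if 1 of its features passed that percentile on 2 or more arrays, and 8 of the 9 regulators did so; Nr0b1 did not. Of these, Tcf21 passed only through the 2 MEF arrays, and Emx2 and Lhx2 through the 2 MEF arrays and 1 TTF-derived array. That these genes differ between the groups was thus partly set by the filter, so their levels are described and their p against MEF is taken from a fit with no filter on low values, over all 20863 named genes. Other genes that passed through 1 group alone are given by their levels, with no p. Such genes still enter the counts of higher and lower genes of each list, which the filter thus set in part.

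Arrays of the same name correlated at 0.9896 to 0.9966 over the features and MEF arrays with ieSC arrays at 0.926 to 0.9408, and no array was identical to another. Xist, transcribed from an inactive X chromosome, was used to check the labels and stood at 3.77 to 4.35 on the 4 arrays labelled as from female TTFs, and its mean was 4.02 in MEF-derived ieSCs and 9.34 in MEFs. The Y-linked gene Eif2s3y averaged 3.71, 3.64 and 10.31 in the same order. Both were thus dim in both kinds of ieSC and well above the dim level in MEFs, and Xist did not bear out the female label of the TTF-derived arrays. The dim Eif2s3y did not go against that label, but it was as dim in MEF-derived ieSCs. Among markers of the labelled cell types, 9 of 11 fibroblast genes were lower in ieSCs than in MEFs, and 7 of 14 tested fetal Sertoli genes were higher and 5 lower. Of all genes 25.9% were higher and 23.6% lower. The Sertoli list holds all 5 transgene factors, with Wt1 among the higher genes and Sox9, Gata4, Nr5a1 and Dmrt1 among the lower. Amh, the hormone that defines fetal Sertoli cells, was dim on 9 of the 10 arrays and reached 5.45 on a MEF-derived ieSC array.

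The 4 regulators that stood lower on all 8 ieSC arrays than on both MEF arrays were Emx2, Lhx9, Lhx2 and Tcf21. The 250 bases before their start sites are shown because these genes moved together. The sequences are RefSeq's for mouse build GRCm38.p6, read 5′ to 3′ toward the gene, and the table held such a window for 7 of the 9 genes. Capitals mark CG dinucleotides, the sites of DNA methylation, and any match to the motifs described after the sequences. The windows are chr19:59458440-59458689 on the plus strand for Emx2, chr1:138842445-138842694 on the minus strand for Lhx9, chr2:38339031-38339280 on the plus strand for the first of the starts of Lhx2, and chr10:22820144-22820393 on the minus strand for Tcf21.
Emx2: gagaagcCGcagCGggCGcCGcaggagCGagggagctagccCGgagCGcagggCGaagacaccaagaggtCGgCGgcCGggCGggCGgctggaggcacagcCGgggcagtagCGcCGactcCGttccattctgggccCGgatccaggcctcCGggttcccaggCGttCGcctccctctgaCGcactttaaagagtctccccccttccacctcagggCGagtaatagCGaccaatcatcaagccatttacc
Lhx9: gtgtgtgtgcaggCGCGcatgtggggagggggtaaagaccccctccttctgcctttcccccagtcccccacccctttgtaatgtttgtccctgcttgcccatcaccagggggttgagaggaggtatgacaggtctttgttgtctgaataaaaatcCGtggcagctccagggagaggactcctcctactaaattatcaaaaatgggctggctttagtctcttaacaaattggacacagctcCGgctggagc
Lhx2: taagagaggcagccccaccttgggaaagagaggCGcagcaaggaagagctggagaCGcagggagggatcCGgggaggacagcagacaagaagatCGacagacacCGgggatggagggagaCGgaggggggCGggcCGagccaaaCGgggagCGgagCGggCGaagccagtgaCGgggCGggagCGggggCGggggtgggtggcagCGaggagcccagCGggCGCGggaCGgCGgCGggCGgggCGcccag
Tcf21: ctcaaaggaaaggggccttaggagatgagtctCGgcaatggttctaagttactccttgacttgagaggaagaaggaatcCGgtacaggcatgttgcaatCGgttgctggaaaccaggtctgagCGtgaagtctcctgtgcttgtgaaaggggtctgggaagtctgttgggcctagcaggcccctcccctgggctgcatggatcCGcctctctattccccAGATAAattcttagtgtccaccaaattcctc

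The windows of the 4 genes did not look alike. Emx2 and Lhx2 had CpG-rich windows, with 24 and 25 CG dinucleotides and GC contents of 67.2% and 72.8%. Lhx9 and Tcf21 had 4 and 5 CG dinucleotides and GC contents of 53.6% and 52.4%, beside medians of 6 dinucleotides and 52.4% over 32851 such windows of mouse genes. Among the others, Nr2f2 had 1 CG dinucleotide and Nr0b1 had 11. Short motifs of the 5 transgene factors were searched on both strands: AAGGTCA for Nr5a1, AGATAA for Gata4, GCGTGGG for Wt1, AACAAT for Sox9 and TACANTGT for Dmrt1, where N is any base. Over the 9 windows of the 7 genes the only match was the AGATAA in capitals in the Tcf21 window, whose first base lies 31 bases upstream of the start site. The same letters occurred in 9.99% of all windows, AAGGTCA in 4.08%, GCGTGGG in 4.3%, AACAAT in 9.42% and TACANTGT in 2.35%, so a match or its absence is a description of these letters only.

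Emx2, a homeobox gene without which the kidneys and gonads do not form, stood at 8.53 and 8.49 on the MEF arrays. On the MEF-derived arrays 1a, 1b, 2a and 2b it read 3.05, 3.80, 4.31 and 3.86, and on the TTF-derived arrays 5.06, 4.37, 4.09 and 3.94. Every ieSC array lay far below both MEF arrays, and 7 of the 8 were dim. The difference of ieSC from MEF was -4.45 ± 0.49 (limma adjusted p = 3.89e-05 with no filter), and it was -4.76 ± 0.54 for MEF-derived and -4.15 ± 0.54 for TTF-derived cells. Because the ieSC values lie at the dim end, where the array's floor may set the level, the size of this difference is not a ratio of transcript amounts. With values floored at the 40th percentile it was -3.50. The 2 origins overlapped, and their difference of 0.61 ± 0.44 was not called (limma adjusted p = 0.327, 95% interval -0.38 to 1.61).

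Lhx2, a LIM homeobox gene known for its roles in forebrain and hair follicle and expressed in the fetal ovary, was bright in MEFs and dim in ieSCs. It read 9.30 and 9.38 in MEFs, 4.57, 4.02, 4.47 and 4.12 in MEF-derived ieSCs, and 4.87, 5.10, 4.71 and 5.02 in TTF-derived ieSCs. All 8 ieSC arrays lay at or near the dim level, and the difference from MEF was -4.73 ± 0.29 (limma adjusted p = 6.78e-07 with no filter), or -4.32 with floored values. All 4 TTF-derived arrays lay above all 4 MEF-derived arrays, by 0.63 ± 0.26, which did not pass the threshold over all genes (limma adjusted p = 0.0925). That comparison lies between dim values, and with the floor the difference was 0.028. With the arrays taken as independent, the arrays of a name averaged, the name number as a block, or MEF-derived array 1a left out, its adjusted p was 0.00416, 0.0431, 0.0316 and 0.0275.

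Lhx9, the LIM homeobox gene that is needed for gonad formation, was lower in ieSCs on all 3 of its features. Its brightest feature read 9.24 and 9.11 in MEFs, 7.19, 7.32, 7.21 and 7.16 in MEF-derived ieSCs, and 7.17, 7.20, 6.48 and 6.29 in TTF-derived ieSCs. The 8 ieSC arrays lay below both MEF arrays without overlap, with a mean difference of -2.18 ± 0.25 (limma adjusted p = 6.49e-05), a 4.52-fold lower intensity. The gene has 3 features under 2 RefSeq transcript records, and the other two gave -2.25 ± 0.19 and -1.88 ± 0.23 in the fit of all features (limma adjusted p = 8.02e-06 and 0.000118). In that fit all 3 features were called against MEF over both origins and in each, beside 44.6%, 46.3% (MEF-derived) and 40.5% (TTF-derived) of the 42617 kept features, and none of the 3 between origins, beside 33.8%. The features differed in brightness, with MEF means of 9.18, 8.63 and 7.23, but not in the direction of change. In ieSCs the brightest feature stayed well above the dim level, whereas the dimmest read 4.99 to 5.66 and failed the 40th percentile on 1 TTF-derived array. Between origins the overlapping values differed by -0.44 ± 0.22 (limma adjusted p = 0.158, 95% interval -0.93 to 0.06). Name 1 of the TTF-derived cells, at 7.18, matched the MEF-derived mean of 7.22, and name 2 stood at 6.38; without name 1 the difference between origins was -0.84 (limma adjusted p = 0.00185).

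Tcf21, a basic helix-loop-helix factor that restrains Nr5a1 in the gonadal interstitium, was measurable in MEFs and dim in ieSCs. It read 7.46 and 7.59 in MEFs, 4.41, 4.53, 5.02 and 4.92 in MEF-derived ieSCs, and 4.77, 4.89, 4.58 and 4.24 in TTF-derived ieSCs. No ieSC array passed its own 40th percentile. The difference from MEF was -2.85 ± 0.24 (limma adjusted p = 9.03e-06 with no filter), and -2.52 with floored values. The origins overlapped, with a difference of -0.10 ± 0.22 (limma adjusted p = 0.771, 95% interval -0.59 to 0.39).

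**Figure D1:**
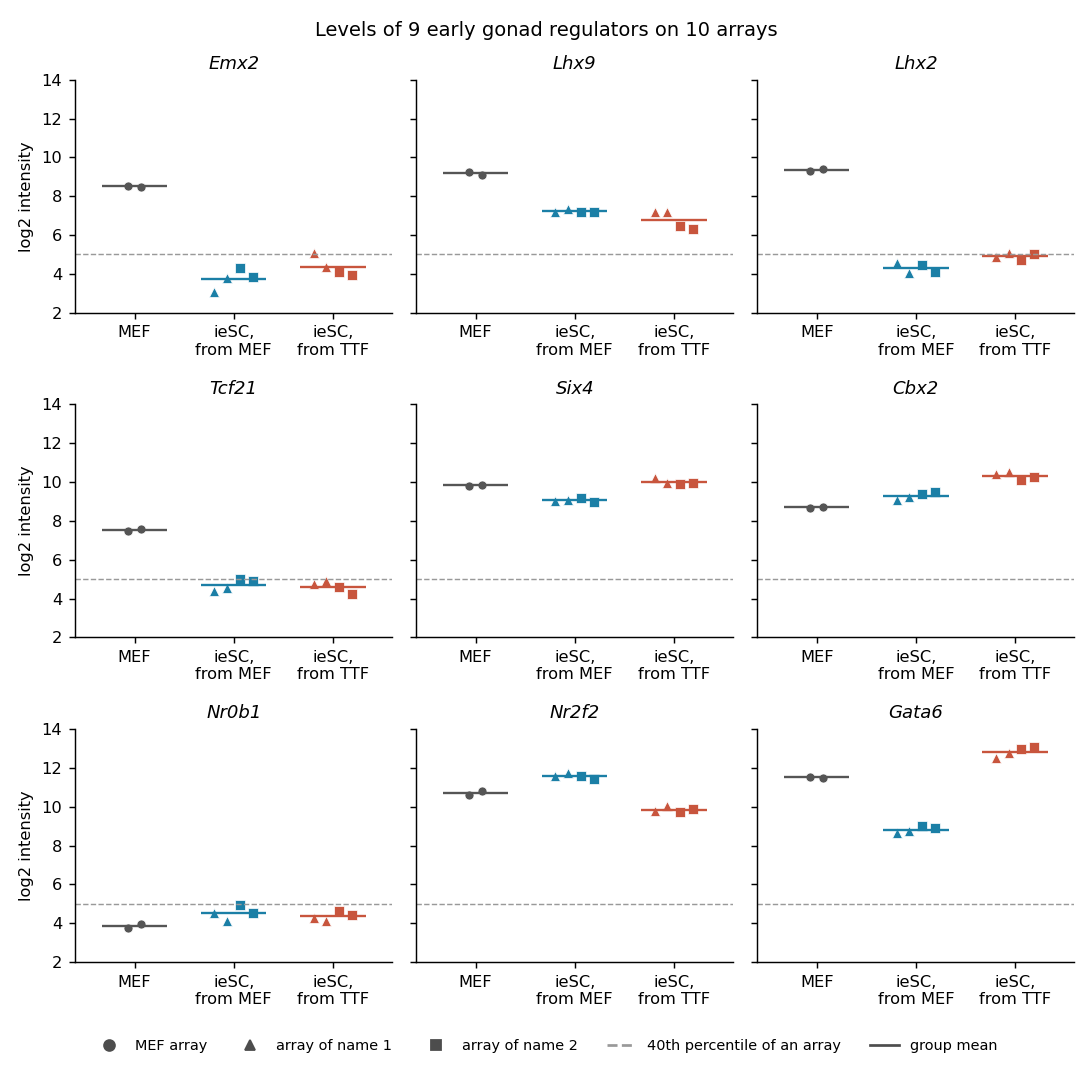
Level of each of the 9 regulators (log2 intensity) on every array, with the group mean as a line and the 40th percentile of an array dashed; for Lhx9 and Nr0b1 the brightest feature is plotted. Emx2, Lhx2 and Tcf21 lie at 7.46 to 9.38 in MEFs and near or below the dashed line in ieSCs, and Gata6 splits the 2 ieSC origins, at 8.66 to 8.98 and 12.51 to 13.10.

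Markers of cell types that differ between the groups moved with these 4 genes. Of 12 tested markers of limb and body wall mesenchyme, 10 fell and 1 rose in ieSCs, where 23.6% of all genes fell and 25.9% rose, and the summed level of the list was 16.54 to 16.58 on the MEF arrays, 12.44 to 12.57 on the MEF-derived and 11.81 to 13.22 on the TTF-derived ieSC arrays. All 10 macrophage markers fell, from a summed level of 16.12 to 16.18 in MEFs to 11.20 to 11.53 and 10.48 to 11.34 in the ieSCs, where Laptm5, C1qa and Ctss had dim means. The fibroblast list had a summed level of 20.06 to 20.11 in MEFs and 18.07 to 19.28 in ieSCs. In MEF-derived and TTF-derived cells this sum rests mostly on Dcn, at 17.72 and 18.70, and Col1a1, at 17.03 and 16.74. The median difference of the fibroblast list from MEF was -6.48. Coelomic epithelium and mesothelial markers went the other way, with 8 of 11 higher and 2 lower and a summed level of 14.46 to 14.49 in MEFs and 18.82 to 19.46 in ieSCs. By origin, 7 were higher and 2 lower in MEF-derived cells, and 8 and 1 in TTF-derived cells. In this list Krt18 averaged 9.69, 15.08 and 9.95 on the MEF, MEF-derived and TTF-derived arrays, and Krt19 10.41, 5.70 and 10.99, so these genes moved in MEF-derived cells mainly. The part of these cell types in the levels of the regulators was not tested, and in bulk RNA fewer cells of a type and less RNA per cell cannot be told apart. Tbx4, Tbx5, Meox1 and Meox2 of the limb list were dim on all ieSC arrays. So were C1qa, Laptm5 and Tyrobp of the macrophage list and Fap and Twist1 of the fibroblast list. Podxl of the coelomic list was dim on both MEF arrays. That these genes were counted was partly set by the filter, so the counts are a description.

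Six4, a homeobox gene that acts on Nr5a1 and Zfpm2, divided the ieSCs by origin. It read 9.81 and 9.86 in MEFs, 9.04, 9.08, 9.16 and 8.97 in MEF-derived ieSCs, and 10.21, 9.98, 9.91 and 9.97 in TTF-derived ieSCs. The MEF-derived arrays lay below both other groups without overlap, at -0.77 ± 0.16 against MEF (limma adjusted p = 0.00304). The TTF-derived arrays lay just above MEF, by 0.19 ± 0.16, which was not called (limma adjusted p = 0.39, 95% interval -0.17 to 0.55). Between the origins the TTF-derived cells were higher by 0.96 ± 0.13 (limma adjusted p = 0.000468), a 1.94-fold difference. The mean of both ieSC groups differed from MEF by -0.29 ± 0.15 (limma adjusted p = 0.131); taken as independent arrays the adjusted p was 0.0162, and without TTF-derived name 1 it was 0.0279.

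Cbx2, the Polycomb protein that reads methylated histones and whose loss in XY mice leads to ovaries, was the single one of the 8 tested regulators called higher in both kinds of ieSC than in MEFs. It read 8.66 and 8.74 in MEFs, 9.09, 9.22, 9.37 and 9.48 in MEF-derived ieSCs, and 10.40, 10.54, 10.13 and 10.25 in TTF-derived ieSCs. The 3 groups did not overlap, in the order MEF, MEF-derived, TTF-derived. The rise against MEF was 1.11 ± 0.16 over both origins (limma adjusted p = 0.000348), or 2.16-fold. The TTF-derived cells rose by 1.63 ± 0.18 (limma adjusted p = 5.65e-05) and exceeded the MEF-derived cells by 1.04 ± 0.14 (limma adjusted p = 0.000491). The smaller rise of the MEF-derived cells, 0.59 ± 0.18 (limma adjusted p = 0.0195), was lost with the arrays of a name averaged (0.106), without MEF array a (0.0512) and without MEF-derived name 2 (0.0668).

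Gata6, a zinc finger factor that overlaps with Gata4 in gonadal somatic cells, showed the widest gap between origins. It read 11.55 and 11.48 in MEFs, 8.66, 8.77, 8.98 and 8.89 in MEF-derived ieSCs, and 12.51, 12.77, 13.00 and 13.10 in TTF-derived ieSCs. The MEF-derived cells were lower than MEFs by 2.69 ± 0.21 on the log2 scale (limma adjusted p = 4.78e-06), and the TTF-derived cells were higher by 1.32 ± 0.21 (limma adjusted p = 0.000601). Between origins the difference was 4.01 ± 0.17 (limma adjusted p = 2.95e-07), or 16.2-fold. A mean over both origins hides this: the ieSC difference from MEF of -0.68 ± 0.19 was called (limma adjusted p = 0.0138) although no ieSC array had a level near that mean, and with the arrays of a name averaged its adjusted p was 0.0871.

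Nr2f2, the nuclear receptor COUP-TFII of interstitial and steroidogenic progenitor cells, was ordered the other way. It read 10.58 and 10.82 in MEFs, 11.60, 11.76, 11.59 and 11.45 in MEF-derived ieSCs, and 9.79, 10.03, 9.71 and 9.86 in TTF-derived ieSCs. Again no 2 groups overlapped. MEF-derived cells stood 0.90 ± 0.20 above MEF (limma adjusted p = 0.0047) and TTF-derived cells 0.85 ± 0.20 below it (difference -0.85, limma adjusted p = 0.00694). The TTF-derived cells were thus lower than the MEF-derived by 1.75 ± 0.17 on the log2 scale (limma adjusted p = 4.83e-05), a 3.36-fold difference, while the mean of both origins lay 0.02 ± 0.18 from MEF (limma adjusted p = 0.936, 95% interval -0.40 to 0.44).

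**Figure D2:**
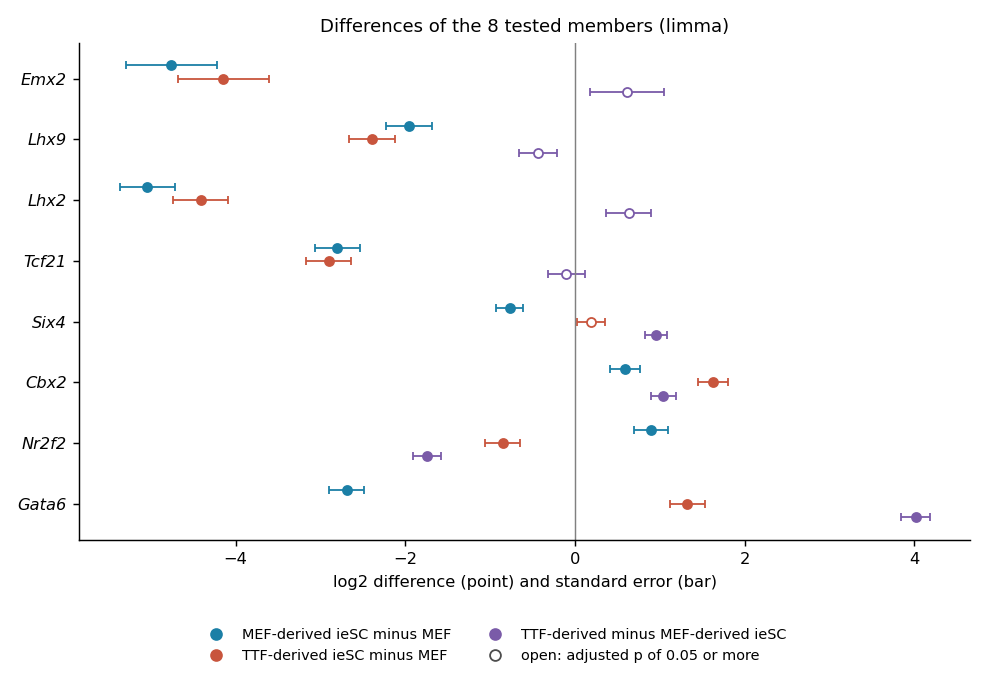
Differences of the 8 tested regulators (log2, point) with their limma standard error (bar) for each ieSC origin against MEF and between the origins; open points have an adjusted p of 0.05 or more. Emx2, Lhx9, Lhx2 and Tcf21 lie left of 0 against MEF in both origins, whereas Gata6 and Nr2f2 lie on opposite sides of 0 in the 2 origins. The points come from the fit with the filter. Emx2, Lhx2 and Tcf21 passed it wholly or mostly through the MEF arrays, so their filled points were set by it in part.

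Nr0b1, the X-linked orphan receptor DAX1 that represses Nr5a1 activity and is expressed early in the gonad, stayed dim in all groups. It has 10 features, all under 1 RefSeq transcript record, and 1 of their 100 values passed the 40th percentile of its array, on MEF-derived array 2a. The mean over the 10 features was 3.44 and 3.15 on the MEF arrays, 3.72, 3.71, 3.68 and 3.59 on the MEF-derived, and 3.62, 3.62, 3.77 and 3.56 on the TTF-derived arrays. The brightest feature averaged 3.84 ± 0.14 (SD, n = 2) in MEFs, 4.53 ± 0.33 (SD, n = 4) in MEF-derived and 4.37 ± 0.22 (SD, n = 4) in TTF-derived ieSCs, and its 8 ieSC arrays all lay above both MEF arrays. In a fit with no filter on low values the difference of 0.61 ± 0.26 was not called (limma adjusted p = 0.0976 over 20863 genes). The mean over the 10 features also lay above both MEF arrays on all 8 ieSC arrays, which was not tested. Apart from the brightest, no single feature had this order, which 28.8% of all genes tested had. The mean of MEF array b holds a value of 1.26 from 1 feature. At this brightness the array floor may set the level, so a difference in transcript was neither shown nor excluded. Whether a transcript was present is not known from these values.

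**Figure D3:**
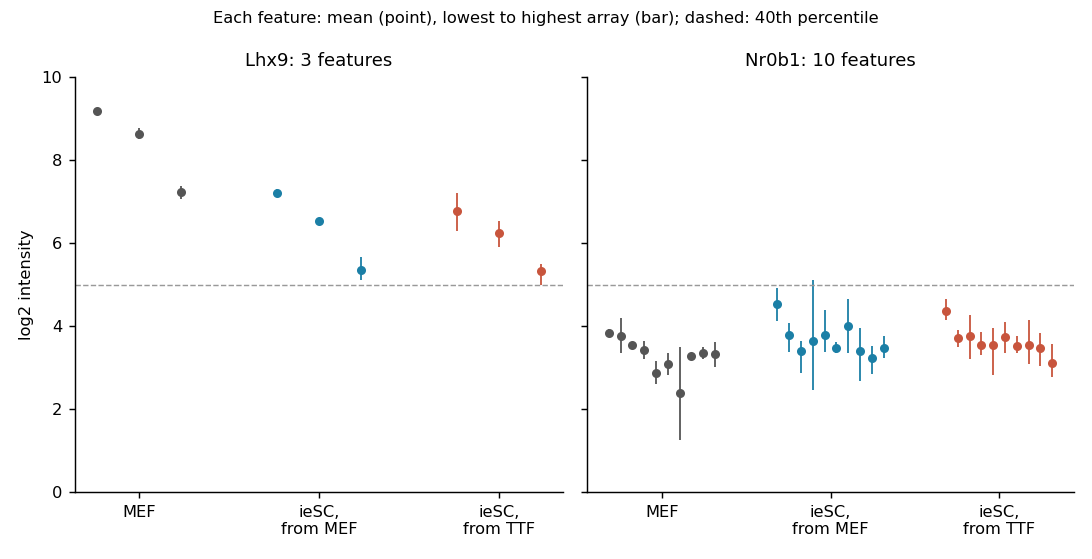
Mean (point) and lowest to highest array (bar) of each of the 3 Lhx9 features and the 10 Nr0b1 features in each group, in log2 intensity, with the 40th percentile of an array dashed. All 3 Lhx9 features step down from MEF to ieSC in parallel, and the Nr0b1 features lie below the dashed line apart from a single array value of 5.12.

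Against MEF, 6 of the 8 tested regulators were called over both origins, 1 higher and 5 lower, where 49.5% of the 16726 genes tested were called (25.9% higher and 23.6% lower). In MEF-derived cells 8 of 8 were called, 2 higher and 6 lower, beside 51.2% of all genes (27.2% higher and 24.0% lower), and in TTF-derived cells 7 of 8, 2 higher and 5 lower, beside 45.1% (23.3% and 21.8%). These comparisons share the same 2 MEF arrays. Between origins 4 of 8 were called, Six4, Cbx2 and Gata6 higher and Nr2f2 lower in TTF-derived cells, beside 36.0% of all genes (16.8% higher and 19.2% lower). Emx2, Lhx2 and Tcf21 are among those called lower against MEF, and since they passed the filter wholly or mostly through the MEF arrays these counts are a description; a stricter filter left 5 regulators, of which 3 were called over both origins, 5 in MEF-derived and 4 in TTF-derived cells. The median difference from MEF was -1.43 for the 8 regulators and 0.086 for all genes, and between origins 0.62 and -0.045. All 8 ieSC arrays lay below both MEF arrays for 4 of the 8 regulators and above for 1, beside 25.0% and 28.8% of all genes, or 53.7% in either direction, and the 4 arrays of each origin did not overlap for 5 of the 8, beside 48.3% (22.1% with the TTF-derived arrays above and 26.2% below). With 8 genes, nothing particular to the regulators was read from these counts.

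Names 1 and 2 differed for some of the regulators by more than the arrays of a name. In TTF-derived cells Gata6 averaged 12.64 in name 1 and 13.05 in name 2, with at most 0.26 between arrays of a name, and Cbx2 averaged 10.47 and 10.19. In MEF-derived cells Tcf21 averaged 4.47 and 4.97, both dim, and Cbx2 9.15 and 9.42. Each of these steps was smaller than the called difference between origins where there was one. With 2 names per origin these steps were not tested.

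Of 24 other regulators of the bipotential gonad, 22 were tested, and in ieSCs 8 were higher and 10 lower than in MEFs, beside 25.9% and 23.6% of all genes. The list holds all 5 transgene factors, and the features were not placed within their genes, so transgene and native transcripts were not separated. Wt1, the zinc finger factor of the coelomic epithelium and Sertoli cells, rose from 11.49 to 17.12 and 17.06 in MEF-derived and TTF-derived cells (5.60 ± 0.27, limma adjusted p = 2.07e-07). Sox9, the factor that drives Sertoli differentiation, fell by 3.46 ± 0.17 on the log2 scale (limma adjusted p = 2.66e-07). Gata4 and Nr5a1 were lower as well, by -1.90 ± 0.32 and -0.68 ± 0.13, and Dmrt1 by -0.50 ± 0.16 (limma adjusted p = 0.000866, 0.00209 and 0.0238). Gata4 averaged 7.59 in MEFs and 5.77 and 5.61 in MEF-derived and TTF-derived cells, the latter values not far above the dim level.

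Osr1, a zinc finger gene of the intermediate mesoderm, and Foxd1, a forkhead gene of renal stroma, had dim means in both origins: Osr1 averaged 11.76, 4.62 and 4.94 on the MEF, MEF-derived and TTF-derived arrays, and Foxd1 9.58, 3.83 and 3.70. Meis1 and Meis2, homeobox partners of the Hox and Pbx proteins, differed from MEF by -1.18 and -1.40. Among genes upstream of Sry, the kinase Map3k4 rose by 1.14 ± 0.12, Mapk14 by 0.52 ± 0.10, the histone demethylase Kdm3a by 0.95 ± 0.10 and the co-activator Cited2 by 1.05 ± 0.16 (limma adjusted p = 3.14e-05, 0.00195, 5.06e-05 and 0.000459). Gadd45g, which acts upstream of Map3k4, went the other way, with a difference of -6.34 ± 0.75 over both origins (limma adjusted p = 9.03e-05). For ieSCs from MEFs alone this difference was -10.16 ± 0.82, and for those from TTFs -2.52 ± 0.82 (limma adjusted p = 6.83e-06 and 0.0318). The genes upstream of Sry thus did not share a direction. Sox4 rose by 1.28 ± 0.16 and Numb by 0.53 ± 0.17, while Sry itself stood at 5.07, 5.15 and 5.40, close to the dim level, and was not called (limma adjusted p = 0.369). The receptor Igf1r differed by -1.26 ± 0.12, and Insr by -0.46 ± 0.19, the latter not called (limma adjusted p = 0.0766).

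Between origins 7 of the 22 were higher and 4 lower in TTF-derived cells, beside 16.8% and 19.2% of all genes. Gadd45g, the stress gene that works upstream of Map3k4 in sex determination, had the largest gap: 17.00 and 16.68 in MEFs, 7.81, 7.84, 5.60 and 5.48 in MEF-derived cells and 15.18, 15.08, 13.61 and 13.39 in TTF-derived cells. The origins differed by 7.63 ± 0.67 (limma adjusted p = 3.19e-05), and in both origins both arrays of name 2 lay below both of name 1. Hoxa11, a Hox gene of the limb and the reproductive tract, averaged 10.29 in MEFs and 10.38 and 12.81 in the ieSCs from MEFs and from TTFs, a difference between origins of 2.43 ± 0.17 (limma adjusted p = 8.64e-06).

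**Figure D4:**
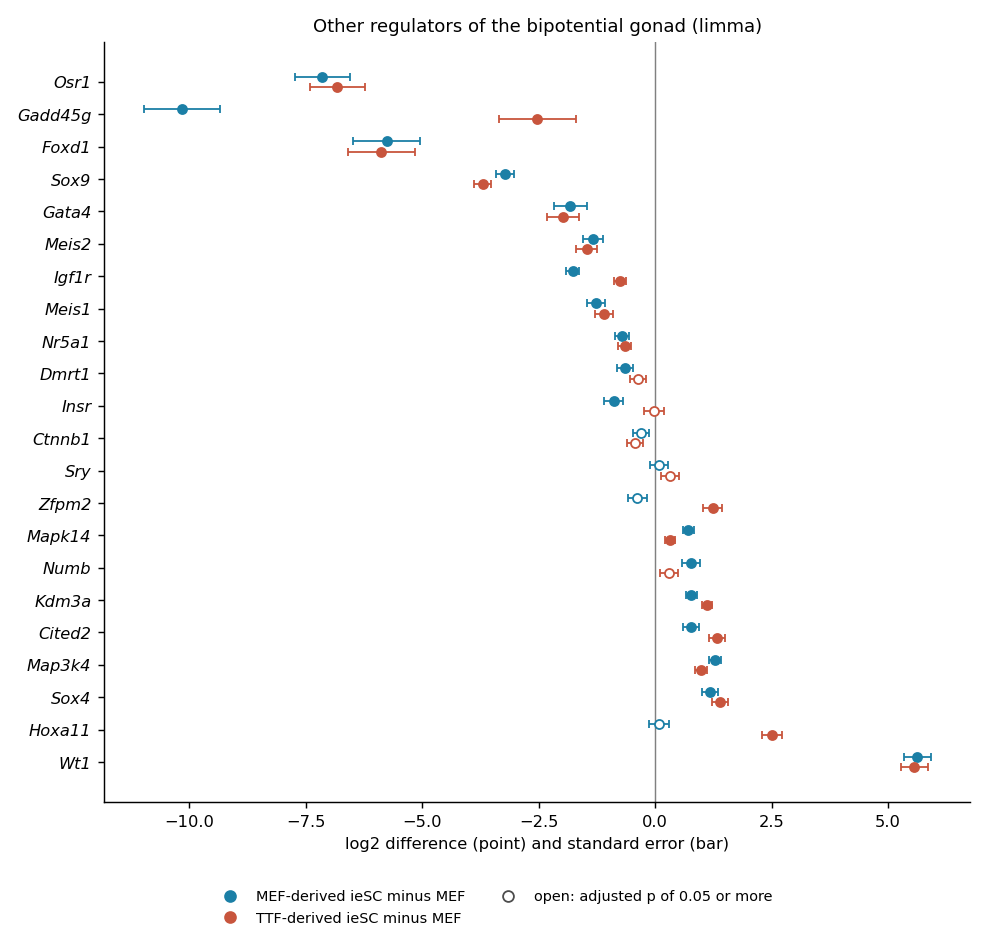
Differences from MEF (log2, point, with limma standard error) of the 22 other regulators of the bipotential gonad in MEF-derived and TTF-derived ieSCs, ordered by their mean; open points have an adjusted p of 0.05 or more. Osr1, Foxd1 and Sox9 lie far left and Wt1 far right in both origins, whereas Gadd45g and Hoxa11 lie apart in the 2 origins. Foxd1 passed the filter through the MEF arrays alone, so its filled points were partly set by the filter.

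Partner proteins of the 9 regulators were measured through 26 tested genes, of which 5 were higher and 7 lower in ieSCs, beside 25.9% and 23.6% of all genes. LIM homeodomain proteins such as Lhx2 and Lhx9 work through a complex of LDB bridging proteins, SSBP proteins and the competing LMO proteins. Ldb2 averaged 9.67, 3.50 and 3.51 on the MEF, MEF-derived and TTF-derived arrays, and Lmo2 9.95, 4.49 and 4.57, so that both were dim in ieSCs. Their relatives stayed bright, with Ldb1 at 13.16, 12.47 and 13.20 and Lmo4 at 14.96, 14.35 and 14.97. Neither was called over both origins (limma adjusted p = 0.12 and 0.127), and both were lower in MEF-derived cells (limma adjusted p = 0.00869 and 0.0119). Ssbp2 rose from 13.27 to 15.67 and 15.11 (2.12 ± 0.11, limma adjusted p = 3.99e-07). Eya2, a co-activator of Six4, read 10.34 and 10.26 on the MEF arrays and 3.65 to 4.39, all dim, on the ieSC arrays. The other Eya genes were not dim in any group. Eya1 averaged 14.13, 15.55 and 16.32 on the MEF, MEF-derived and TTF-derived arrays. In the same order Eya3 averaged 13.1, 13.2 and 13.1, and Eya4 9.85, 11.08 and 9.51. For Cbx2 the catalytic partner Rnf2 was lower, at -0.97 ± 0.12, and its relative Ring1 higher, at 0.55 ± 0.16 (limma adjusted p = 9.34e-05 and 0.0192); these 2 genes were picked after their values were seen.

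Between origins 9 of the 26 were higher and 3 lower in TTF-derived cells, beside 16.8% and 19.2% of all genes. Zfpm2, the FOG2 cofactor of GATA factors, read 10.36 and 10.30 in MEFs, 9.91 to 10.06 in MEF-derived cells and 11.28 to 11.85 in TTF-derived cells. The origins did not overlap, as for Gata6, and differed by 1.62 ± 0.17 (limma adjusted p = 8.8e-05). Ncor1, a co-repressor of nuclear receptors, averaged 11.36 in MEFs, 10.83 after conversion of MEFs and 11.39 after conversion of TTFs, a difference between origins of 0.56 ± 0.08 (limma adjusted p = 0.000803).

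**Figure D5:**
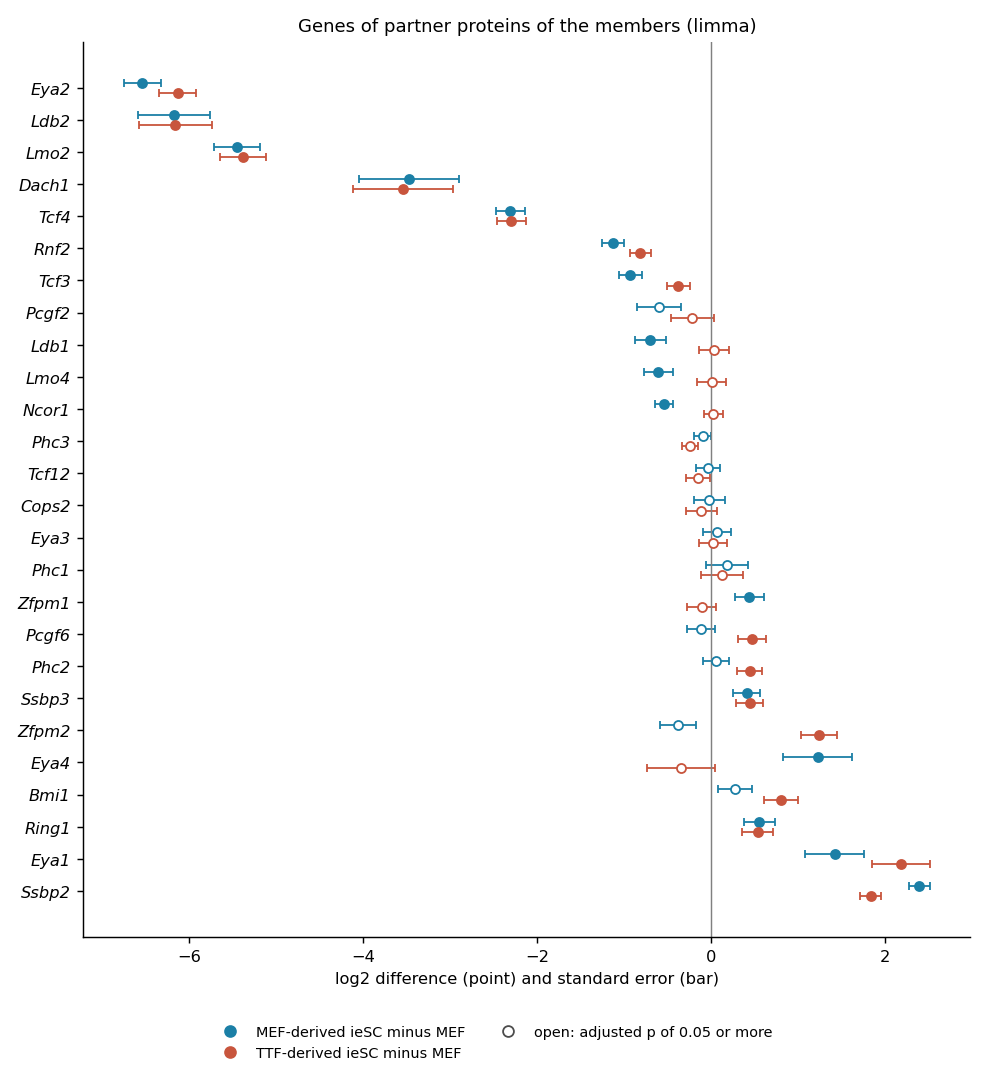
Differences from MEF (log2, point, with limma standard error) of the 26 tested genes of partner proteins in MEF-derived and TTF-derived ieSCs, ordered by their mean; open points have an adjusted p of 0.05 or more. Eya2, Ldb2 and Lmo2 lie lowest in both origins and Ssbp2 is raised in both, and Zfpm2 is raised in TTF-derived cells alone by its adjusted p. Eya2, Ldb2, Lmo2 and Dach1 passed the filter through the MEF arrays alone. Their filled points were thus partly set by the filter and are a description.

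Of 21 tested paralogs of the 9 regulators, 5 were higher and 8 lower in ieSCs, beside 25.9% and 23.6% of all genes. Six2, the nephron progenitor relative of Six4, had a mean of 11.70 in MEFs and read 3.42 to 4.37, all dim, on the ieSC arrays. Lhx6 fell from 12.13 to 9.44 and 8.94 (limma adjusted p = 1.83e-05), and Lhx8, with a MEF mean of 8.65, had dim ieSC means of 4.19 and 4.68. Tcf23, a relative of Tcf21, was dim in MEFs at 4.50 and stood at 8.56 and 8.04 in ieSCs. Between origins 3 paralogs were higher and 2 lower, beside 16.8% and 19.2% of all genes. Lhx5 was dim in MEFs and MEF-derived cells, at 3.42 and 3.76, and stood at 7.30 in TTF-derived cells, and Cbx6 stood at 14.45, 13.88 and 14.92 (1.03 ± 0.10 between origins, limma adjusted p = 6.01e-05).

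Of 9 tested genes known to lie downstream of these regulators in the gonad, 0 were higher and 6 lower in ieSCs than in MEFs over both origins by limma at the adjusted threshold, beside 25.9% and 23.6% of all genes. At an unadjusted limma p under 0.05, 1 of the 9 was higher, which was Zfpm2; in TTF-derived cells alone it was called higher, by 1.24 ± 0.21 (limma adjusted p = 0.000906). Of the 6 lower genes, the steroid enzymes Hsd3b1 and Cyp11a1 passed the filter through the MEF arrays alone. They stood at 10.16 and 9.44 in MEFs and were dim on all ieSC arrays, with means of 4.79 and 3.45 for Hsd3b1 and 3.71 and 3.50 for Cyp11a1. Cyp17a1, another steroid enzyme of the list, stayed bright at 11.09 in MEFs and 11.08 and 10.84 in MEF-derived and TTF-derived ieSCs. It was not called (limma adjusted p = 0.377). Egfr, a growth factor receptor held down by Emx2 in the early gonad, was lower in ieSCs at -2.12 ± 0.17 (limma adjusted p = 7.03e-06). Its mean was 15.00 in MEFs and 11.80 and 13.96 in the ieSCs from MEFs and from TTFs, a difference between origins of 2.16 ± 0.15 (limma adjusted p = 8.66e-06).

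The genes most like each tested regulator were found by the root mean square difference of the 10 centred log2 values, over 16725 other genes and with no test. The measure was 0.309 and 0.314 for Lrmp and Arc beside Emx2, 0.140 for both L3hypdh and Ckap4 beside Lhx9, 0.191 and 0.212 for Arhgap20 and Rcsd1 beside Lhx2, and 0.149 and 0.195 for Bin2 and Lmcd1 beside Tcf21. It was 0.0865 and 0.0943 for Gm5481 and Gm6570 beside Six4, and 0.0791 and 0.103 for Tacc1 and Zfp647 beside Cbx2. Beside Nr2f2 stood Gm3448 and Amy1 at 0.107 and 0.108, and beside Gata6 stood Dscc1 and Kif20b at 0.112 and 0.133. Among the regulators themselves Lhx9 and Tcf21 were closest at 0.383, followed by Emx2 and Lhx2 at 0.477. With 10 arrays in 3 groups, a small value mostly says that the 3 group means lie at like distances.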

How the data were processed

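RNA of 10 samples of cultured mouse cells was read on 1-colour Agilent arrays. The deposited values are log2 intensities of 62976 features, from 0.288 to 19.02; the authors used limma per the submitters' processing notes, with no version, while background correction and normalization are not given in the sources used here. The log base was taken as 2 from the range of the values. Once sorted, the columns agree to within 0.0379 apart from the dim end, as quantile normalization would leave them, so a change in total mRNA per cell cannot be seen.

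Groups came from the source names in the labels. Gene symbols came from the platform annotation (31465 features with 1 symbol, 0 with several and 31511 with none), updated through accessions matched in RefSeq for 29050 features. Features brighter than the 40th percentile of their array on 2 or more arrays were kept (42617), and the brightest kept feature by mean stood for its gene. Repeat spots and the place of a feature in its gene could not be told, so repeats were not averaged.

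Groups were compared in R 4.3.3 with statmod 1.5.0 and limma 3.58.1, fitted to all 10 arrays with a mean per group and the name shared by 2 arrays as a random block (duplicateCorrelation, consensus 0.605). Residual degrees of freedom were 7, 2 of them between names of the ieSCs and none between names of MEF, with a prior of 2.21. The test was two-sided, with Benjamini-Hochberg adjustment over 16726 genes and a threshold of 0.05. A fit over all kept features gave the values of each feature. Precision is limited by the number of arrays, with a median SE of 0.175 against MEF and 0.156 between origins.

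The regulators, the gene lists, the tests and the alternatives were chosen with earlier results of these data known. Besides the 9 regulators, the genes named are those with the smallest p of each list, up to 4 for ieSC against MEF and up to 2 between origins, any gene of the list of other bipotential gonad regulators, and the 2 nearest genes by likeness. Outside this rule, Rnf2, Ring1, Dcn, Col1a1, Cyp17a1 and the relatives set beside Eya2, Ldb2 and Lmo2 were named after their values were seen. A summed level is the log2 of the summed linear intensities of a list. Alternatives changed the filter, the block, the scaling, a floor, the choice of feature, the prior, and the arrays and names included. Further marker lists, with genes higher and lower in ieSCs, were granulosa (2 and 3 of 7 tested), gonadal interstitial and Leydig progenitor (1 and 4 of 8), endothelial (2 and 1 of 4) and germ cell (0 and 3 of 5). The shares over all genes were 25.9% and 23.6%.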

Additional observations from a re-analysis of the deposited data

Results flagged for a closer look

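Several values were set apart by a test of the difference between the effects in the 2 origins, which is the limma comparison of TTF-derived with MEF-derived ieSCs. Among the 8 tested regulators it was 0.957 for Six4, 1.04 for Cbx2, -1.75 for Nr2f2 and 4.01 for Gata6. Among the other named genes it was 7.63 for Gadd45g, 3.54 for Lhx5, 2.43 for Hoxa11, 2.16 for Egfr, 1.62 for Zfpm2, 1.03 for Cbx6 and 0.564 for Ncor1. These other genes had been named for a small p in this same comparison, so that they were set apart was fixed in advance. Their values are a description only. Lhx5 also passed the filter through the TTF-derived arrays alone. Both origins were set against the same 2 MEF arrays, and each origin is represented by 2 names.

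Of 82 groups of 4 arrays tested for an array far from the other 3, 1 was found, where chance gives about 1 in 20. Zfpm2 on MEF-derived array 2b stood at 10.06, and the next array of that group stood at 9.93.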

How the results depend on the processing

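The 4 comparisons were repeated under up to 23 alternatives. Against MEF, the difference of Lhx9 kept its direction and its call in every alternative, over both origins and in each, and Emx2, Lhx2 and Tcf21 kept their direction in every alternative that tested them. For Emx2, Lhx2 and Tcf21 the filter had set that direction in part, so it is a description only. A stricter filter (above the 50th percentile on at least 4 arrays) left Emx2, Lhx2 and Tcf21 untested, and called 3 regulators for ieSC against MEF, 5 for MEF-derived and 4 for TTF-derived cells. Averaging the arrays of a name left 5521 genes in place of 8282 called for ieSC against MEF, 4782 in place of 7544 for TTF-derived cells and 2436 in place of 6023 between origins. Leaving out 1 array or 1 name gave 7353 to 9209 genes and 6 to 7 regulators for ieSC against MEF, 7735 to 9699 and 7 to 8 for MEF-derived cells, 6754 to 8284 and 7 for TTF-derived cells, and 5072 to 6616 and 4 to 5 between origins. Nr2f2 in ieSC against MEF changed sign without MEF array a (-0.099), without MEF-derived array 1b (-0.00077) or name 1 (-0.018), and without TTF-derived array 1b (-0.0083) or name 1 (-0.010); leaving out 1 array or name gave -0.099 to 0.14, never called. The uncalled difference of Tcf21 between origins changed sign without MEF-derived name 2 (0.15) and without TTF-derived name 2 (0.11), in a range of -0.35 to 0.15. Same-numbered names of the 2 origins deviated together only weakly (r = 0.273 over 42617 features, 2 numbers), and nothing in the labels pairs them; with the name number as a replicate block on the 8 ieSC arrays, 8373 genes and 5 regulators were called between origins, Lhx2 being the added one. Other calls that moved are given beside their genes, and no cause was tested. The levels of Lhx9 and Nr0b1 depend on the feature, and below about 5.0 the array floor, not the transcript, may set a level. Ranked by Pearson correlation over the 10 arrays, the gene most like a regulator was the same for Emx2 (Lrmp) and Gata6 (Dscc1) and another gene for the other 6 tested.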
